A study of Mus musculus with 2 samples.

Results

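EBF1 binding was examined over the stretch of mouse chromosome 11 that holds Rel and Bcl11a, in mature follicular B cells from spleen. The locus was defined by position, from 23.45 to 24.25 Mb in the mm8 build, and every peak of the authors' list inside it was taken. It held 5 EBF1 peaks of 7424 in the list and of 664 on chromosome 11. From the start of the window to its end the peaks are called P1 to P5. Rel was placed at about 23.6 to 23.7 Mb and Bcl11a at about 23.95 to 24.1 Mb. Those positions are approximate, and no mm8 gene annotation was used here, so no peak is assigned to an exon, an intron or a promoter.

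The study measured 1 EBF1 ChIP-seq library and 1 input library (sonicated chromatin without precipitation) from splenic B cells of adult C57BL/6 mice. Cells bearing CD43, AA4.1, CD4, CD8 or CD9 had been depleted, and the remainder were mostly B220+ cells with CD23 and intermediate CD21. The labels name no genetic change or treatment, give no number of animals and describe the antibody as a custom-made polyclonal rabbit antibody. Expression was not measured, so the cell type cannot be checked against marker genes. The libraries held 24354888 ChIP and 23053279 input reads. There were no replicates, so the intervals below cover counting error only and no p-value is given.

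EBF1 is a DNA-binding transcription factor that B cells need for their commitment and that mature B cells continue to express. Rel encodes c-Rel, an NF-κB subunit abundant in mature lymphocytes, which enters the nucleus after receptor stimulation and supports proliferation and survival. Bcl11a encodes a zinc-finger repressor needed for early B cell development and known in red cells for silencing fetal globin genes. In the RefSeq gene table (another build, used only for gene order) the protein-coding genes run Pex13, Pus10, Rel, Papolg, Bcl11a and then Fancl. Pex13 encodes a peroxisomal import protein, Pus10 a pseudouridine synthase, Papolg a poly(A) polymerase and Fancl a ubiquitin ligase of the Fanconi anaemia pathway.

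Promoter sequences of Rel and Bcl11a are shown, with those of their neighbours Pus10 and Papolg that hold the core of the EBF1 motif. Peak sequences in mm8 were not analysed here. Each is the 250 bases before the RefSeq transcription start, 5′ to 3′ on the gene's strand, in build GRCm38.p6. Their coordinates cannot be set against the mm8 peak positions. Rel is on the minus strand at chr11:23770970-23771219, and Bcl11a on the plus strand at chr11:24080445-24080694. The Pus10 sequence is on the plus strand at chr11:23665424-23665673, and that of Papolg on the minus strand at chr11:23895271-23895520. Capitals mark CCCNNGGG, the motif core, searched on both strands (it reads the same on each). It was not found before Rel or Bcl11a, so those sequences have no capitals.
Rel: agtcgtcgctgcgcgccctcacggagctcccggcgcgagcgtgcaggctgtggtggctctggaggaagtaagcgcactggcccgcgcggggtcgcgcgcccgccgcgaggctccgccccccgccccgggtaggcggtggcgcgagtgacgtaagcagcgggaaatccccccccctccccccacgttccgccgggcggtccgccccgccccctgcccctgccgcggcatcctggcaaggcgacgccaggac
Bcl11a: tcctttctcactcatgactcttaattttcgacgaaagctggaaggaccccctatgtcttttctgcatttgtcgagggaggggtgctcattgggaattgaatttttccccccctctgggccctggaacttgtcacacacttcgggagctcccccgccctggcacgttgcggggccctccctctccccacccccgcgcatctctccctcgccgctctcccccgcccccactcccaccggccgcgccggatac
Pus10: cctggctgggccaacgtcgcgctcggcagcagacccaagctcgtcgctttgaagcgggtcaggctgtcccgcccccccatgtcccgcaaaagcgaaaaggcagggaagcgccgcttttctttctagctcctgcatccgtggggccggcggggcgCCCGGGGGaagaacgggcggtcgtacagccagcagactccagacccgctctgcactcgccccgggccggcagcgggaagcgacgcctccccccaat
Papolg: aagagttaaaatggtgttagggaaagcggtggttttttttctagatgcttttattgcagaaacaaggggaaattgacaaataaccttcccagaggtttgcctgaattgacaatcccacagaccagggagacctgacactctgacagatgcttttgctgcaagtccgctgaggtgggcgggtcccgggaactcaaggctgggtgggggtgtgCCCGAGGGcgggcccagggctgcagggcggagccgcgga
The core begins 96 bases before the start of Pus10 and 39 bases before that of Papolg. A second Pus10 start and that of Pex13 have none. A longer form of the motif, with a fixed base added at each end of the core, was also searched. It was not found before Rel, Bcl11a, Pus10 (either start), Papolg or Pex13, so the Pus10 and Papolg matches are to the core only. The core occurs in 11.8% of the 32841 RefSeq promoter sequences of this length, and the longer form in 0.78%. The absence of a match says only that these letters are not in these windows. GC content is 77.6% before Rel and 62.0% before Bcl11a, against a median of 52.4% over all these sequences. The GC content found before Rel is reached by 2.35% of them, and that before Bcl11a by 23.3%.

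The strongest EBF1 peak of the locus lay in the Bcl11a segment, and 4 of the 5 peaks scored above the median of the list. P5 had the highest authors' score of the 5, at 10.99, and the Rel segment held P1 alone, with a score of 8.10. The score is the peak caller's own value without a stated scale, and runs from 5.00 to 124.6 over the list with a median of 6.07. P5 ranked 1208th of 7424 peaks and 110th of 664 on chromosome 11. P1 ranked 1916th, P2 3061st with a score of 6.55, P4 3164th with 6.42 and P3 3855th with 5.92. P3 alone lay below the median.

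**Figure D1:**
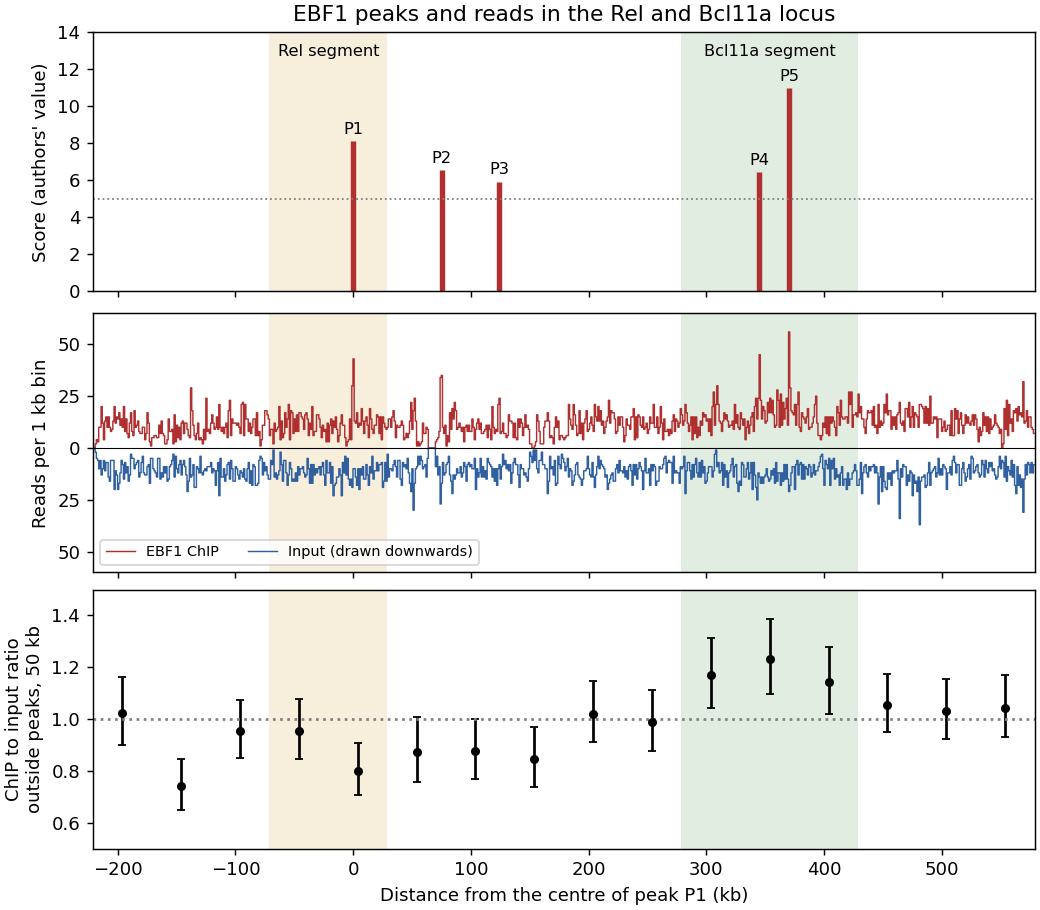
Top, the authors' score of the 5 peaks (dotted line, the lowest score in the list); middle, reads per 1 kb bin, ChIP upwards and input downwards; bottom, the scaled ChIP to input ratio outside peaks in pieces of 50 kb with 95% counting intervals. The horizontal axis is the distance from the centre of P1 in kb, and shading marks the approximate Rel and Bcl11a segments; the 3 pieces of the Bcl11a segment lie above 1, from 1.14 to 1.23, and P5 marks the bin with the most ChIP reads.

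Read counts were taken in each peak after moving the 5′ end of a read 100 bp towards its 3′ end. Ratios of ChIP to input reads were scaled for library size (24337709 against 23033569 reads on the assembled chromosomes). The peaks had been called on these reads, so their ratios are raised by that choice and describe the peaks rather than test them.

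P1, at chr11:23671011-23671160 in the Rel segment, held 15 ChIP and 2 input reads, and their scaled ratio was 7.10 (95% interval 1.65 to 64.0). P2, at chr11:23746161-23746310, held 18 ChIP and 0 input reads, at least 5.68-fold higher than the floor of 3 input counts. With the error of the ChIP count counted in, the interval of its ratio starts at 4.16. ChIP reads thus exceeded input at both peaks, while the ChIP counts of P1 and P2 overlap within Poisson intervals of 8.40 to 24.7 and 10.7 to 28.4.

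P3, at chr11:23794911-23795060, was the weakest by count with reads moved 100 bp, with 8 ChIP reads and 1 input read (ratio 7.57, 1.02 to 336). With reads not moved P1 was the weakest instead, at 6 ChIP reads against 9 at P3. Moved 50 bp, P1 held 8 and P3 10. P4, at chr11:24016141-24016290 in the Bcl11a segment, held 22 ChIP reads and, at 7, the most input reads of the 5, a ratio of 2.97 (1.23 to 8.24). P5, at chr11:24041651-24041800, also in the Bcl11a segment, held 34 reads against 4, and the ratio was 8.04 (2.87 to 31.2). Every interval except that of P2, which has no upper bound, spans at least 6-fold, so the 5 ratios cannot be ranked at this depth.

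By ChIP reads alone P5 stood above 87.6% of all listed peaks and P3 above 10.6%. Their Poisson intervals, 23.5 to 47.5 reads for P5 and 3.45 to 15.8 for P3, do not overlap. An interval wholly above 2 was reached by P2 and P5, which is 2 of 5 peaks, where 38.3% of all listed peaks and 38.7% of those on chromosome 11 reached it. The share in this locus is close to that background. Pooled, the 5 peaks held 97 reads against 14, which gave a ratio of 6.56 (3.73 to 12.4), against 6.42 over chromosome 11 and 10.1 over the list. Both values lie within the interval of the locus. With reads not moved the pooled ratio of the locus was 11.99 (5.26 to 33.7).

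Those calls depend on how reads are counted. With reads not moved P2 fell below the limit (lower bound 1.18) and P4 passed it (2.17). A shift of 50 bp put P2 (2.35), P4 (2.13) and P5 (3.70) past the limit, as it did 44.6% of the whole list. P1 (1.02) and P3 (1.35) stayed below. At that shift P4 had 26 ChIP reads to 4 from input, so its ratio rose to 6.15 from 2.97 at 100 bp. In 1 kb around the centre 0 of 5 passed, with lower bounds from 1.20 for P4 to 1.92 for P5, where 36.1% of all peaks passed.

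The peaks had different shapes. P2, P4 and P5 were narrow, while reads at P1 and P3 were spread over most of 1 kb. The share of the ChIP reads within 1 kb of sequence around the centre that fell in the 150 bp peak was 50.0% at P2 (exact binomial interval 32.9 to 67.1%), 56.4% at P4 (39.6 to 72.2%) and 52.3% at P5 (39.5 to 64.9%). It was 26.8% at P1 (15.8 to 40.3%) and 22.2% at P3 (10.1 to 39.2%). An even spread would give 15%. Among the 2803 listed peaks with scores from that of P3 to that of P5, the median was 36.2% and the quartiles 28.9 and 45.8%. P2, P4 and P5 therefore lay above the upper quartile and P1 and P3 below the lower. The intervals of P1, P2 and P3 contain the median of those peaks, and those of P4 and P5 lie above it.

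The interval of P3 does not reach those of P4 and P5, while that of P1 overlaps those of P2, P4 and P5. These shares were counted with reads moved 100 bp only, and the overlaps hold for that shift. Moved 50 bp, the listed 150 bp held 8 ChIP reads at P1, 16 at P2, 10 at P3, 26 at P4 and 43 at P5. P1 had 56 ChIP reads within 1 kb, second to the 65 of P5, but only 15 of them in the listed 150 bp. In steps of 100 bp, with reads moved 50 bp, P5 reached 24 ChIP reads, P4 16 and P2 15 next to the centre. P1 reached no more than 8, from 300 bp before the centre, in 1 step together with 7 input reads, and kept 4 to 6 reads per step from the centre to 600 bp after it. P3 had its highest step, 8 reads, 300 to 399 bp after the centre. Counted in 1 kb the ratio was 3.31 (1.87 to 6.19) at P1 and 3.79 (1.79 to 8.94) at P3, against 3.24 (1.92 to 5.72) at P5, 2.27 (1.21 to 4.47) at P2 and 2.17 (1.20 to 4.09) at P4. These intervals overlap throughout.

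**Figure D2:**
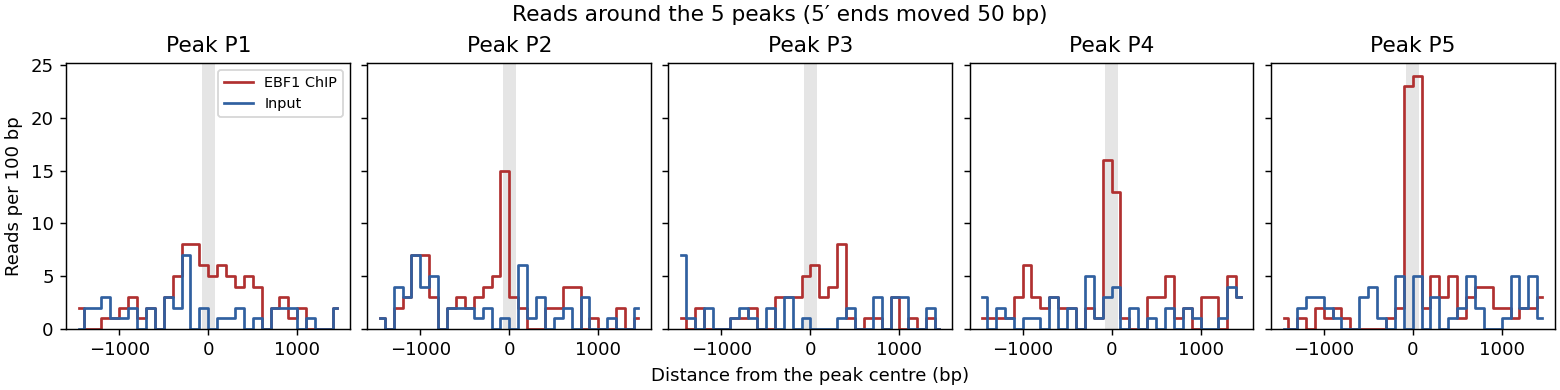
ChIP and input reads per 100 bp around the centre of each of the 5 peaks, against distance in bp, with the listed 150 bp shaded. P2, P4 and P5 rise to 15, 16 and 24 ChIP reads beside the centre, whereas P1 and P3 stay at or below 8 and spread more widely.

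Most ChIP reads at each peak pointed towards its centre. Of the ChIP reads starting within 150 bp of the centre, 76.9% at P1, 85.0% at P2, 83.3% at P3, 90.0% at P4 and 82.0% at P5 pointed inward (plus-strand starts before the centre, minus-strand starts after it). The median over all 7415 peaks on assembled chromosomes was 80.0%. Input starts within the same distance were few, and at P4 most of them pointed inward too. P1 had 2 plus-strand input starts before the centre and 1 after it, and P3 had 1 before it. At P5 1 plus-strand start lay before the centre and 4 minus-strand starts after it, with 3 minus-strand starts before it. At P4 3 plus-strand starts lay before the centre and 3 minus-strand starts after it, with 1 plus-strand start after it. At P2 the input had 0 and 0 pointing inward, against 3 plus-strand starts after the centre and 1 minus-strand start before it. The median starts of the strands lay 124 bp apart at P1, 115 at P2, 114 at P4 and 106 at P5, but 45 bp at P3. The values of P1 and P3 both rest on few ChIP reads. P1 had 6 plus-strand starts before the centre and 1 after it, with 2 minus-strand starts before it and 4 after it. For P3 these counts were 4, 1, 1 and 6.

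Beside the peaks no ratio of ChIP to input stood above 1 beyond its interval. At 500 to 2500 bp from the centre on both sides, the ratio was 0.835 at P1 (0.547 to 1.27), 0.963 at P2 (0.659 to 1.41), 0.518 at P3 (0.317 to 0.829), 1.03 at P4 (0.747 to 1.43) and 1.19 at P5 (0.822 to 1.74). For the peaks in the same score range the median was 1.29, with quartiles of 1.03 and 1.63. P3 was lower than all but 0.143% of them. All 5 lay below the median, and the intervals of P1 and P3 exclude it. The ChIP reads in the peaks were 7.15 times (P4) to 13.3 times (P5) those expected from these flanks, against a median of 6.06 for peaks of the score range. Only the interval of P5 (8.56 to 20.4) lies above that median. Those of P1 (4.60 to 16.2), P2 (4.52 to 13.99), P3 (2.91 to 16.5) and P4 (4.25 to 11.6) contain it.

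The segments of the locus differed in ChIP reads outside the peaks. Counted in bins of 1 kb that lay 2 kb or more from a peak, the ratio was 1.18 in the Bcl11a segment (2012 ChIP and 1614 input reads, 1.10 to 1.26). It was 0.878 in the Rel segment (1035 and 1116 reads, 0.806 to 0.956). The ratio between the segments was 1.34 (1.21 to 1.496, normal approximation on the log scale, counting error only). The 150 kb before Rel had 0.905 (0.843 to 0.971), the 250 kb between the gene segments 0.929 (0.878 to 0.983) and the 150 kb after Bcl11a 1.04 (0.980 to 1.11). Input reads per covered kb ran from 10.5 between the genes to 12.3 after Bcl11a, and ChIP reads per covered kb from 10.2 before Rel to 14.4 in the Bcl11a segment.

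Ratios like those of the Bcl11a and Rel segments are common along the chromosome. Differences between pairs of nearby pieces were not counted. Over 791 pieces of 150 kb on chromosome 11 the middle 90% of ratios ran from 0.782 to 1.42, and the Bcl11a value was above 68.1% of them. The Rel value was above 20.5% of the 1185 pieces of 100 kb. The middle 90% of those ran from 0.779 to 1.44. The segments thus differ beyond counting error, while both values lie within the usual range of the chromosome.

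Compared with 148 windows of 800 kb on chromosome 11, the locus lay above the median in number of peaks and in its strongest peak, and below it in ChIP reads outside peaks. The windows were cut in step with the locus, which was chosen with earlier results of these data known, so its standing is a description only. The 5 peaks of the locus compare with a median of 2.5 (quartiles 0 and 7, highest 31). More peaks were found in 49 windows, as many in 4 others and fewer in 94. A stronger top peak than P5 was found in 58 windows and a weaker top peak or none in 89. Outside peaks the whole locus had a ratio of 0.990 (0.961 to 1.02), with 95 windows higher and 52 lower, and a median of 1.08 (quartiles 0.936 and 1.21). Among the 20 windows with 4 to 6 peaks, the locus included, 16 had a higher ratio outside peaks and 10 a stronger top peak. Chromosome 11 holds more listed peaks than any other chromosome (664, then 564 on chromosome 2). Against 2959 windows of chromosomes 1 to 19 the locus had more peaks than 80.9% and a stronger top peak than 76.3%. Its ratio outside peaks was above 54.6% of them, so on that measure it lies below the median of chromosome 11 and above that of the autosomes.

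**Figure D3:**
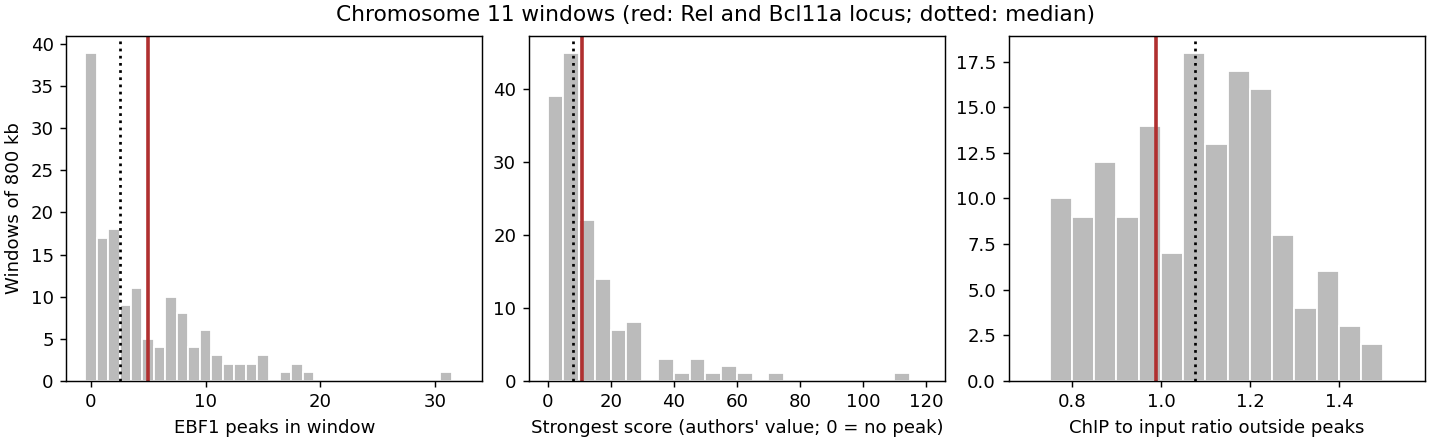
Histograms of 148 windows of 800 kb on chromosome 11 by number of EBF1 peaks, score of the strongest peak (0 where there is none) and ChIP to input ratio outside peaks. The red line marks the locus, at 5 peaks, a score of 10.99 and a ratio of 0.990; the dotted line marks the median.

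Long gaps separated the 5 peaks from the next EBF1 peaks on either side, and the peaks were themselves mostly far apart. They spanned 371 kb within a stretch of 2.03 Mb that held no other listed peak. The nearest peak before them, at chr11:22967841-22967990, had a score of 6.60, with 10 ChIP and 0 input reads, and lay 703 kb before P1. The nearest after them, at chr11:25000111-25000260, scored 12.5 and lay 958 kb after P5. It held 9 ChIP reads against 2 in the input, a ratio of 4.26 (0.882 to 40.5). Of the 663 gaps between neighbouring peaks on chromosome 11, only 33 and 23 were longer than these, and the median was 45.2 kb. Among the 5 peaks the gaps were 75.2 kb from P1 to P2, 48.8 kb to P3, 221 kb to P4 and 25.5 kb to P5. All but the last exceed the median, and the 221 kb gap is longer than 83.4% of all gaps. The long gap separates the 3 peaks in and after the Rel segment from the 2 in the Bcl11a segment. The neighbouring windows of 800 kb held 4 peaks before the locus and 1 after it, with ratios outside peaks of 0.963 and 0.887.

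Outside the listed peaks the locus held little further enrichment. Of its 766 bins of 1 kb at least 2 kb from a peak, 1 was enriched, with 20 or more ChIP reads and 5 or more times the scaled input (0.131%, where 0.0829% of such bins over all chromosomes did). With the libraries exchanged 0 did in the locus and 0.0192% over all chromosomes. That bin, at chr11:23979001-23980000 in the Bcl11a segment, held 21 ChIP reads and 1 input read (ratio 19.9, 3.20 to 822). A median bin of the locus held 11.5 ChIP and 11 input reads, so its ratio comes with a low input as well as a raised ChIP count. The bins with the most ChIP reads in the locus were those of P5, with 56 ChIP and 21 input reads, P4 with 45 and 14, P1 with 43 and 10, and P2 with 35 and 17. The bin of P3, with 21 and 10, was passed by 41 other bins.

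That bin was part of a longer stretch, chosen after its values were seen. Over 5 bins, chr11:23977001-23982000, there were 110 reads in the ChIP library and 31 in the input, so the ratio was 3.36 (2.24 to 5.18). ChIP counts in the 5 bins were 27, 11, 21, 30 and 21, and input counts 11, 3, 1, 9 and 7. The 150 bp with the most ChIP reads there held 10 of the 110, with 1 input read, whereas the listed 150 bp of P2, P4 and P5 held 18, 22 and 34. The stretch lies 36.7 kb before P4. In the same grid of 5 kb over chromosome 11, 4 of 22612 stretches away from peaks reached 100 ChIP reads with a ratio of 3 or more, this 1 included. With the libraries exchanged 0 had. The grid and both limits were set with this stretch in view, so its own passing is no finding.

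**Figure D4:**
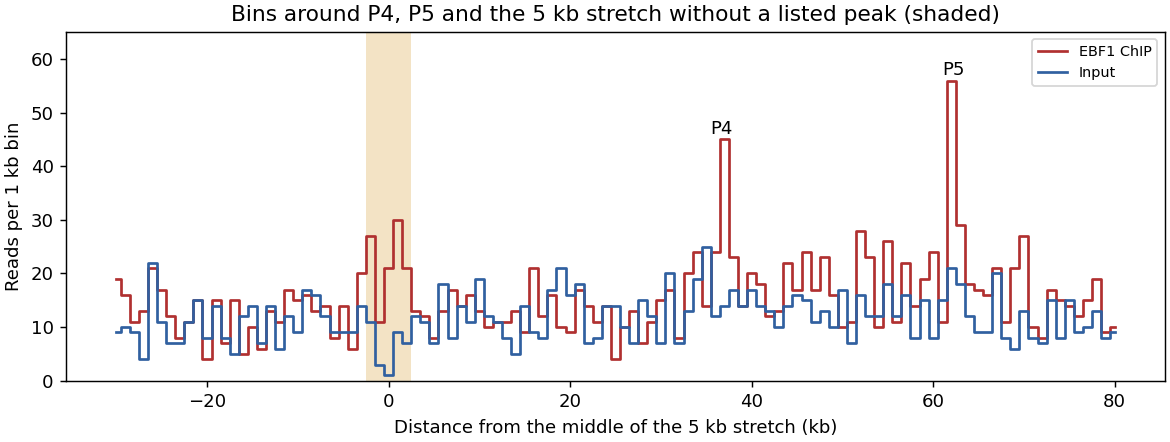
ChIP and input reads per 1 kb bin, against distance in kb from the middle of the 5 kb stretch (shaded). ChIP reads in the stretch reach 30 in a bin while input falls to 1, and the bins of P4 and P5 reach 45 and 56 ChIP reads.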

How the data were processed

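The authors deposited aligned reads, 1 per line with position and strand and no other value, and a list of peaks with a score per peak. Every read is 35 bp long and each position and strand occurs once per library. Per the submitters' processing notes, the build was mm8 and HOMER was among the tools. The peak list itself is labelled CCAT, and which tool gave its peaks and scores is not stated. Not given in the sources used here: aligner, filters on reads, and how the deposited score was calculated. It was used only to describe and rank peaks within the list.

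Reads were recounted in peaks and in 1 kb bins, with the 5′ end moved 100 bp. Ratios carry exact conditional binomial 95% intervals. The reads carry no molecular identifiers, and repeated positions are absent from the files, so intervals and the floor of 3 counts cover counting error only. Windows needed at least 2000 input reads, and a bin counted as enriched from 20 ChIP reads and a ratio of 5 upwards. The ratios, their intervals and the marking of bins near peaks were tested on simulated counts. Those had no peak selection, read shift or removal of repeated positions, so they do not test the ratios of the listed peaks. With 12 or fewer peaks in the locus, all were named, and at most the 3 enriched bins with the most ChIP reads. The locus, segments, limits and motif were chosen with earlier results of these data known. Samples are numbered in accession order. Alternatives tried were other read shifts, widths, scaling, windows and limits. Scripts ran under Python 3.11.15, with scipy 1.17.1 for intervals, pandas 2.3.3 and numpy 2.4.6 for counting and matplotlib 3.10.9 for plots.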

Additional observations from a re-analysis of the deposited data

How the results depend on the processing

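The ratio pooled over the 5 peaks of the Rel and Bcl11a locus was 6.56. It stayed within its interval at 11.99 with reads not moved (1.83 times as high) and 8.86 moved 50 bp. The same held at 6.65 scaled by the background and 7.63 in 200 bp. Scores of at least 10 left P5 alone, so the value of 8.04 there is the ratio of 1 peak and not a pooled one. In 1 kb around the centre the pooled ratio was 2.89. Peaks with an interval above 2 numbered 2 or 3 under the other ways of counting and 0 in 1 kb. The share of the whole list past this limit shifted too, from 38.3% to 31.3% for unmoved reads and 44.6% at 50 bp. Background scaling gave 38.5%, a width of 200 bp 54.8% and 1 kb 36.1%. The count of 3 arose at 50 bp and in 200 bp, where that share was also higher, so it cannot be read as particular to this locus. Of the 25 values of single peaks under other settings, 19 kept their side of the limit of 2, 3 passed it and 3 fell below it. Against windows of chromosomes 1 to 19 instead of chromosome 11, the share of windows below the locus was 80.9% for peak number, 76.3% for the strongest peak and 54.6% for the ratio outside peaks. The enriched bin outside peaks was lost with bins of 500 bp (0) and with at least 30 ChIP reads (0), while a ratio of at least 3 gave 4. Those at chr11:23979001-23980000 and chr11:23980001-23981000 lie in the 5 kb stretch described above. Shares over all chromosomes were not counted at these limits, so the counts cannot be set against a background. Why the counts differed between settings was not tested. The other 27 comparisons of such results stayed within their limits, among them the ratios outside peaks of the locus and its 5 segments. Depth limits all single peaks, which held 8 to 34 ChIP reads with reads moved 100 bp. No paired analysis was possible because there was only 1 ChIP and 1 input library, numbered in accession order.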
